A study of Mus musculus with 6 samples.

Results

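Melanocytes are the pigment cells of skin and hair, and 9 genes that make, mark or carry their pigment granules, the melanosomes, were followed in mouse colorectal tumours grown at 2 kinds of site. The genes were Mlph, Rab27a, Myo5a, Mitf, Tyr, Tyrp1, Dct, Mlana and Slc45a2. The genes were named with earlier results of these data known, and their probe sets were selected on mean signal. A gene was counted as measured where the array held a probe set annotated to that gene alone, and the probe set with the highest mean over 6 arrays was used. All 9 had a value, each from 1 such probe set, among 22180 genes measured in all. The tumours came from mouse colorectal cancer cells placed either in white adipose tissue, the fat-storing tissue, or in non-adipose tissue, and were taken at 1 to 1.5 cm3. There were 3 mice per site, labelled as biological replicates, with 1 tumour on each array. The sources used here do not name the cancer cell line, the mouse strain and its coat colour, the age of the animals or the exact sites of injection. Values are log2 signals as deposited, so a difference of 1 is a doubling. The whole tumour was assayed, so fewer cells of a type and less RNA per cell cannot be told apart.

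Melanosomes are lysosome-related organelles in which tyrosinase (Tyr) and the related enzymes Tyrp1 and Dct turn tyrosine into melanin. Mature melanosomes are tethered to actin by a chain of 3 proteins: the small GTPase Rab27a sits on the melanosome, melanophilin (Mlph) binds it, and the motor myosin Va (Myo5a) binds melanophilin. Mutations in these genes give the diluted mouse coats ashen (Rab27a), leaden (Mlph) and dilute (Myo5a). Mitf is the transcription factor that specifies melanocytes, and it binds DNA elements of the E-box type, among them the M-box, in front of pigment genes. Tyr, Tyrp1, Dct, Mlana and Slc45a2 are largely restricted to pigment cells, whereas Rab27a and Myo5a also act in secretion and in neurons and Mlph is also made by glandular epithelia.

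The promoters are shown because Mitf and several genes with these elements were measured together. RefSeq promoter windows of build GRCm38.p6 were found for 7 of the 9 genes, with 10 windows in all, since Mitf and Rab27a have several annotated starts. In the 250 bases before each start, both strands were searched for the M-box core TCATGTG and for the E-box CACGTG, which do not overlap each other in any of these windows. The M-box core was found in Tyr, Tyrp1 and Dct, and the E-box in Mlph and in 1 window of Rab27a. The sequences run 5′ to 3′ in the direction of the gene and end at the base before the start, with the matches in capitals. They are those of the reference strain, at chr7:87493513-87493762, minus strand (Tyr), chr4:80833963-80834212, plus strand (Tyrp1), chr14:118052247-118052496, minus strand (Dct) and chr1:90914850-90915099, plus strand (Mlph).
Tyr: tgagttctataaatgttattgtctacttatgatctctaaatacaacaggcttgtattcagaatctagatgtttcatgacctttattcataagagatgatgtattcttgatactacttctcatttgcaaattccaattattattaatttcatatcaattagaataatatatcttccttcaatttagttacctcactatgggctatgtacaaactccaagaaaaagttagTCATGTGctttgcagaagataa
Tyrp1: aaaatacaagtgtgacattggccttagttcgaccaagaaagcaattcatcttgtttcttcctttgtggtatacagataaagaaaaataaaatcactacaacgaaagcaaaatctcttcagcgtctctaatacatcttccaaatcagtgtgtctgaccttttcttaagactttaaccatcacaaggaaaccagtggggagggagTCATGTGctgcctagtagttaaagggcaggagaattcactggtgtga
Dct: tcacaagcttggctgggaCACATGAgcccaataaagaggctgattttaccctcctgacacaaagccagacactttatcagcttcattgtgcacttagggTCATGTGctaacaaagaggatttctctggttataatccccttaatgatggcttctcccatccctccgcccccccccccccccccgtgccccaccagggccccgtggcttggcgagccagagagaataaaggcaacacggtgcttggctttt
Mlph: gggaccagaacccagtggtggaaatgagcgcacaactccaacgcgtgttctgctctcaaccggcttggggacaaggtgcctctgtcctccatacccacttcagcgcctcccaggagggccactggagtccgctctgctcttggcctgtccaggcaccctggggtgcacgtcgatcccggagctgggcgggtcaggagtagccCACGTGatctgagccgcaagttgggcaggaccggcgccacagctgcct
The match lay at -22 to -16 from the start in Tyr and at -47 to -41 in Tyrp1. Dct had a match at -151 to -145 and another, on the opposite strand, at -232 to -226. The E-box of Mlph lay at -48 to -43. Of 32851 promoter windows in the table, 3.25% held the M-box core and 6.02% the E-box. The core with the bases that flank it in Tyr, AGTCATGTGCT, stood in front of 7 of 27025 genes, among them Tyr, Tyrp1 and C1qb, a complement gene of macrophages. Over the 523 measured genes with the core, the median difference between sites was 0.0123, against -0.00202 over all 16990 measured genes with a promoter window.

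The question was whether the level of these genes differed between tumours of the 2 sites. Mlph had a higher signal in every white adipose tumour than in any non-adipose tumour, 1.45-fold on average, and was the only one of the 9 with a clear gap between the groups. Its partners Rab27a and Myo5a did not show that pattern. Tyr, Tyrp1, Dct, Mlana and Slc45a2 had means 1.03-fold to 1.16-fold lower in the white adipose tumours, but Tyrp1 and Slc45a2 changed sign in some alternatives. In a wider list of 9 measured melanocyte markers, which includes these 5, 3 had a higher and 6 a lower mean. Over the 9 genes followed here, 4 had a higher and 5 a lower mean in white adipose tumours. Their median difference was -0.0427, against -0.00043 over all genes. No member passed an adjusted p of 0.05 in limma, 0 higher and 0 lower, as was the case for 0.0% of all genes in each direction. At an unadjusted p under 0.05 there was 1 member higher (Mlph) and 0 lower, where 1.66% of all genes were higher and 2.13% lower. The lower count became 1 (Dct) after quantile normalization, with array medians subtracted, and when either white adipose replicate 2 or non-adipose replicate 2 was left out. Arrays of the 2 sites did not overlap for 1 member higher in white adipose tumours (Mlph) and 1 lower (Mlana), where this held for 3.34% of all genes in the higher and 3.97% in the lower direction. As the level of Mlph was known when the genes were chosen, its position is a description. With single arrays left out, which makes it easier not to overlap, these counts ran from 1 to 3 in the higher and from 1 to 3 in the lower direction. The higher count was 3 without non-adipose replicate 3, where 8.58% of all genes did not overlap in that direction. The lower count was 3 without white adipose replicate 3, where 7.42% did so.

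**Figure D1:**
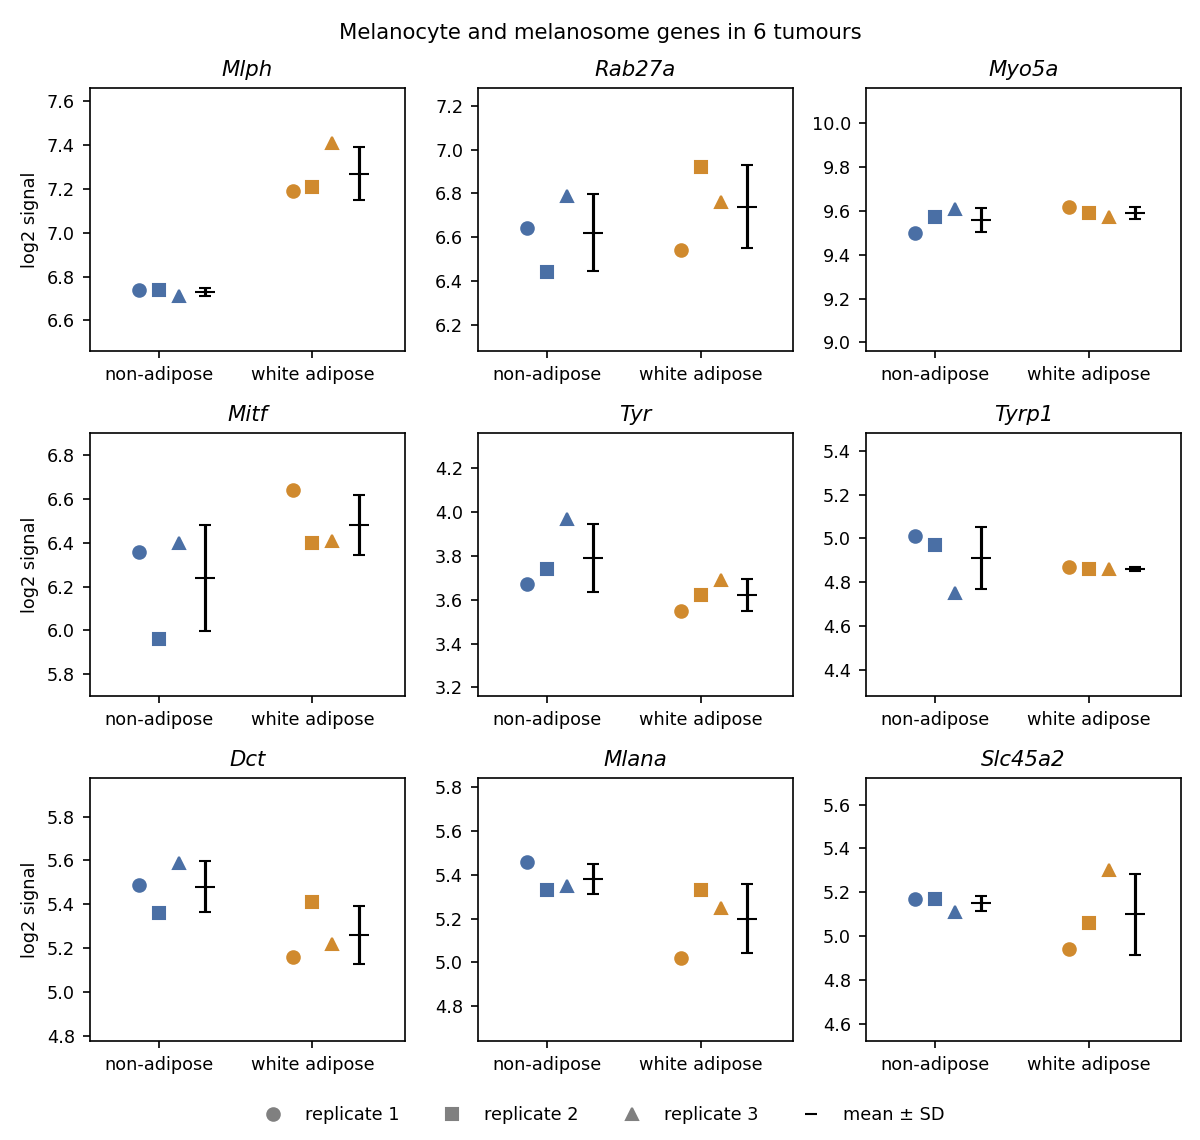
Log2 signal of the 9 genes in each tumour, with circles, squares and triangles for replicates 1, 2 and 3 and bars for the mean ± SD (n = 3) beside them; every panel spans 1.2 log2 units. Mlph has all white adipose tumours at 7.19 or above and all non-adipose tumours at 6.74 or below, and in the other panels the groups overlap or touch, Mlana being separated by 0.0025.

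Of the transport chain, Mlph, the adaptor between Rab27a and the myosin, stood at 6.74, 6.74 and 6.71 in non-adipose replicates 1, 2 and 3 and at 7.19, 7.21 and 7.41 in white adipose replicates 1, 2 and 3. The non-adipose tumours were nearly alike, and all white adipose tumours lay above them, replicate 3 the farthest. The means were 6.73 ± 0.0173 (SD, n = 3) and 7.27 ± 0.12 (SD, n = 3), a difference of 0.54 with a limma SE of 0.0764 and a 95% confidence interval from 0.35 to 0.73. By unadjusted limma p, Mlph ranked 5 of 22180 genes, with an adjusted p of 0.936. Whichever array was left out, its difference stayed between 0.47 and 0.58, with adjusted p-values from 0.411 to 0.993.

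Rab27a, the GTPase that recruits Mlph, measured 6.64, 6.44 and 6.79 in the non-adipose and 6.54, 6.92 and 6.76 in the white adipose tumours, in the order of the replicates. The groups overlapped, with the lowest value in non-adipose replicate 2 and the highest in white adipose replicate 2. The difference was 0.12 (SE 0.132, 95% confidence interval from -0.20 to 0.44; limma adjusted p = 0.937), and it ran from 0.027 without non-adipose replicate 2 to 0.22 without white adipose replicate 1. Myo5a, the motor of the chain, measured 9.50, 9.57 and 9.61 in the non-adipose and 9.62, 9.59 and 9.57 in the white adipose tumours. All 6 values lay within 0.12 of each other, the narrowest range among the 9 genes. Its difference was 0.03 (SE 0.0587, 95% confidence interval from -0.11 to 0.17; limma adjusted p = 0.957). Whether the difference of Mlph departs from those of its partners was not tested.

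Mitf, the melanocyte transcription factor, measured 6.36, 5.96 and 6.40 in the non-adipose and 6.64, 6.40 and 6.41 in the white adipose tumours. White adipose replicate 1 was the highest and non-adipose replicate 2 the lowest, and the groups met at an identical value in non-adipose replicate 3 and white adipose replicate 2. Equal values on at least 2 arrays, to 6 significant digits, occurred for 35.3% of all genes, ties within a group included. The difference was 0.24 (SE 0.14, 95% confidence interval from -0.10 to 0.58; limma adjusted p = 0.936), and it was 0.10 without non-adipose replicate 2. The probe set does not separate the forms of Mitf made from its several starts, of which 1 is used by melanocytes and others by many cell types.

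Of the 3 melanin enzymes, Tyr, which carries out the first steps of the pathway, measured 3.67, 3.74 and 3.97 in the non-adipose and 3.55, 3.62 and 3.69 in the white adipose tumours. The highest value was in non-adipose replicate 3, and white adipose replicate 3 lay just above non-adipose replicate 1. The difference was -0.17 (SE 0.0948, 95% confidence interval from -0.41 to 0.06; limma adjusted p = 0.936). It was -0.087 without non-adipose replicate 3. Dct, the dopachrome tautomerase, measured 5.49, 5.36 and 5.59 against 5.16, 5.41 and 5.22. White adipose replicate 2 overlapped non-adipose replicate 2, and the other white adipose tumours were lower than all non-adipose ones. Its difference of -0.22 (SE 0.0973, 95% confidence interval from -0.46 to 0.02; limma adjusted p = 0.936) was the largest decrease in mean among the 9 genes. Tyrp1, which stabilises tyrosinase and acts late in the making of melanin, measured 5.01, 4.97 and 4.75 against 4.87, 4.86 and 4.86. The white adipose values lay inside the span of the non-adipose ones, where replicate 3 was the lowest, opposite to Tyr and Dct. Its difference was -0.04 (SE 0.0835; limma adjusted p = 0.96).

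Of the 2 other pigment cell genes, Mlana, a melanosome membrane protein, measured 5.46, 5.33 and 5.35 in the non-adipose and 5.02, 5.33 and 5.25 in the white adipose tumours. The groups did not overlap, but only 0.0025 separated white adipose replicate 2 from non-adipose replicate 2. The difference was -0.18 (SE 0.0956, 95% confidence interval from -0.41 to 0.05; limma adjusted p = 0.936), and it was -0.091 without white adipose replicate 1, the lowest array. Slc45a2, a transporter that keeps the melanosome's pH suitable for tyrosinase, measured 5.17, 5.17 and 5.11 against 4.94, 5.06 and 5.30. White adipose tumours held both the lowest and the highest value, so the groups overlapped. Its difference was -0.05 (SE 0.102; limma adjusted p = 0.958).

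**Figure D2:**
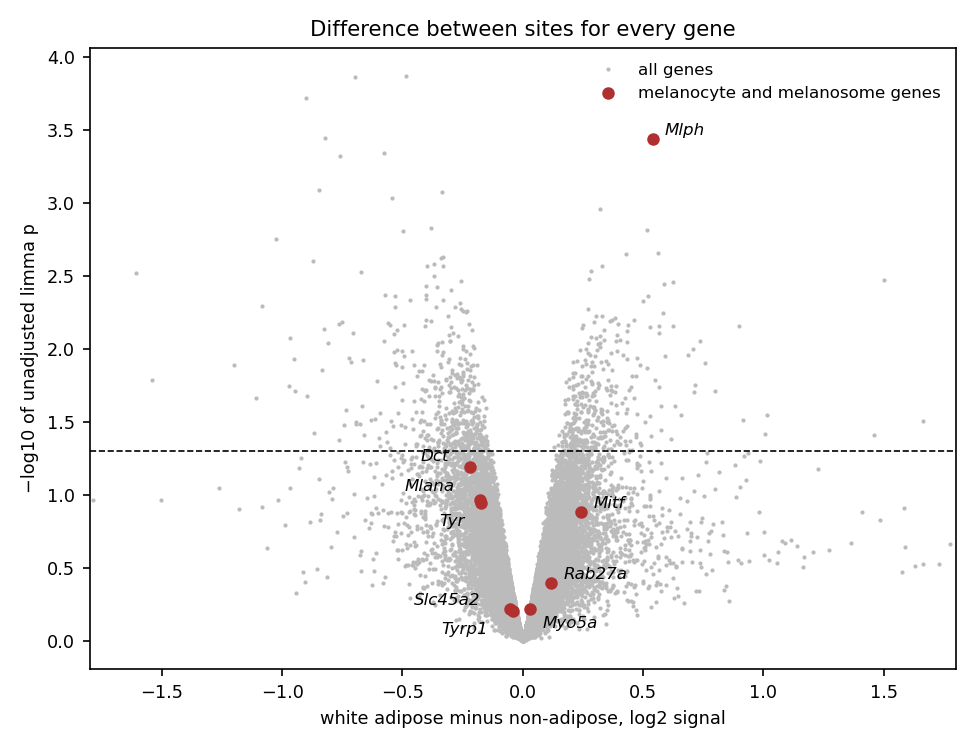
Each grey point is a gene, with its difference between sites in log2 signal on the x axis and the negative log10 of its unadjusted limma p on the y axis. The dashed line marks the 0.05 threshold, the 9 members are in red, and 4 genes lie beyond the x axis, which ends at 1.8 either way. Mlph lies alone among the members above the line, and the other 8 lie within the mass of all genes.

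Whether pigment cells were represented in the tumours at all was examined through 9 measured melanocyte markers of 10 listed. All but Mitf, 8 of 9, lay below the median of all genes by mean signal. Tyr was at percentile 10.6, the pigment transporter gene Oca2 at 22.0, Tyrp1 at 27.8, Slc45a2 at 33.0, Mlana at 36.7, Dct at 38.4, the melanosome matrix gene Pmel at 41.0 and the lineage factor gene Sox10 at 44.1. Probe sets differ in brightness and no detection calls were at hand, so these percentiles do not show that a gene was off, and low values may be background. The log2 of the summed linear signal of the 9 markers ran from 8.41 to 8.55 in the non-adipose and from 8.43 to 8.53 in the white adipose tumours. The genes are therefore described by name here, not as a sign of pigment cells. Mlph was at percentile 65.3, Rab27a at 60.9 and Myo5a at 95.3.

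Other melanosome proteins are those of the granule's matrix, channels and small GTPases beyond the 9. Of 15 listed, 14 were measured, 11 with a higher and 3 with a lower mean in white adipose tumours and a median difference of 0.0355, and 0 were called by limma at an adjusted or an unadjusted p of 0.05. Gpr143, a receptor on the melanosome, differed by 0.17 (SE 0.0802). It alone of the 14 did not overlap between groups, against 3.34% of all genes in the higher direction. Of the 14, 7 were highest in white adipose replicate 1. The cation channel gene Trpm1 differed by 0.15 (SE 0.103) and Rab38, a GTPase that delivers enzymes to melanosomes, by 0.17 (SE 0.145). By mean signal Gpr143 lay at percentile 22.8 and Trpm1 at 20.1, so their low values may be background. Gpr143 was at 0.09 without non-adipose replicate 3, Trpm1 at 0.071 without non-adipose replicate 1, and Rab38 between 0.066 (white adipose replicate 1 left out) and 0.32 (white adipose replicate 3 left out). Slc7a11, the cystine transporter, differed by -0.45 (SE 0.411), from -0.83 without white adipose replicate 1 to -0.14 without non-adipose replicate 1. Genes that assemble lysosome-related organelles, namely those of the HPS, AP-3 and BLOC-1 subunits with Lyst and Vps33a, were all measured. Of these 18 genes, 9 had a higher and 9 a lower mean, with a median of 0.006 and 0 called at either p. Among them Bloc1s6 differed by -0.14 (SE 0.0705), Dtnbp1 by 0.20 (SE 0.105), Hps3 by 0.09 (SE 0.0622) and Hps4 by 0.15 (SE 0.106). With 1 array left out, the difference of Hps4 was 0.043 (white adipose replicate 2), that of Dtnbp1 0.10 (white adipose replicate 1) and that of Hps3 0.052 (non-adipose replicate 2). Only Hps3 did not overlap between groups, in the higher direction, where this held for 3.34% of all genes.

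Of 12 measured among 14 listed regulators of the melanocyte lineage, 9 had a higher and 3 a lower mean, with a median difference of 0.0526. None was called at an adjusted p, and 1 was higher at an unadjusted p under 0.05, against 1.66% of all genes. That gene was Kitl, which encodes stem cell factor, the ligand that melanocyte precursors, mast cells and germ cells need. Kitl measured 8.47, 8.32 and 9.0 in the non-adipose and 9.32, 9.44 and 9.11 in the white adipose tumours. The groups did not overlap, as for 3.34% of all genes in the higher direction. Even so, non-adipose replicate 3 lay close to white adipose replicate 3. Its difference was 0.69 (SE 0.192; limma adjusted p = 0.936), and it was 0.55 to 0.89 with 1 array left out. Kit, its receptor, differed by 0.16 (SE 0.246), the melanocortin receptor gene Mc1r by 0.08 (SE 0.118) and the lineage factor gene Pax3 by 0.07 (SE 0.109). The relatives of Mitf, the lysosomal regulators Tfe3 and Tfeb and the myeloid factor Tfec, differed by -0.05 (SE 0.0937), 0.0044 (SE 0.0577) and 0.05 (SE 0.175). Of these 3 genes 0 were called at either p, and their median difference was 0.00438.

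The genes that act beside Rab27a and Myo5a were looked at in the same way. All 17 listed effectors and regulators of Rab27 were measured, 10 with a higher and 7 with a lower mean, a median difference of 0.0131 and 0 called at either p. Rph3al differed by 0.11 (SE 0.0718), Unc13d, which primes secretory granules, by 0.12 (SE 0.0971), the Rab27 GTPase-activating gene Tbc1d10a by 0.12 (SE 0.0968) and Chm, an escort protein for Rab prenylation, by 0.07 (SE 0.0648). With non-adipose replicate 2 left out, Unc13d was at 0.058 and Tbc1d10a at 0.053, and with white adipose replicate 3 left out Chm was at 0.034. Of 6 other unconventional myosins, 5 had a higher and 1 a lower mean, with a median of 0.18. Of these, 0 were called at an adjusted p and 1 was higher at an unadjusted p under 0.05, against 1.66% of all genes. That gene was Myo5c, a class V myosin of glandular epithelia, which measured 6.66, 6.39 and 7.67 in the non-adipose and 7.66, 7.92 and 7.89 in the white adipose tumours. Non-adipose replicate 3 reached the white adipose tumours, and the groups overlapped there. Its difference was 0.91 (SE 0.327; limma adjusted p = 0.936) and ran from 0.66 without non-adipose replicate 2 to 1.30 without non-adipose replicate 3. Myo5b differed by 0.16 (SE 0.101), Myo1e by 0.21 (SE 0.115) and Myo10 by -0.10 (SE 0.0803). Without white adipose replicate 1, Myo5b was at 0.061 and Myo10 at -0.033, and without non-adipose replicate 1 Myo1e was at 0.11.

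**Figure D3:**
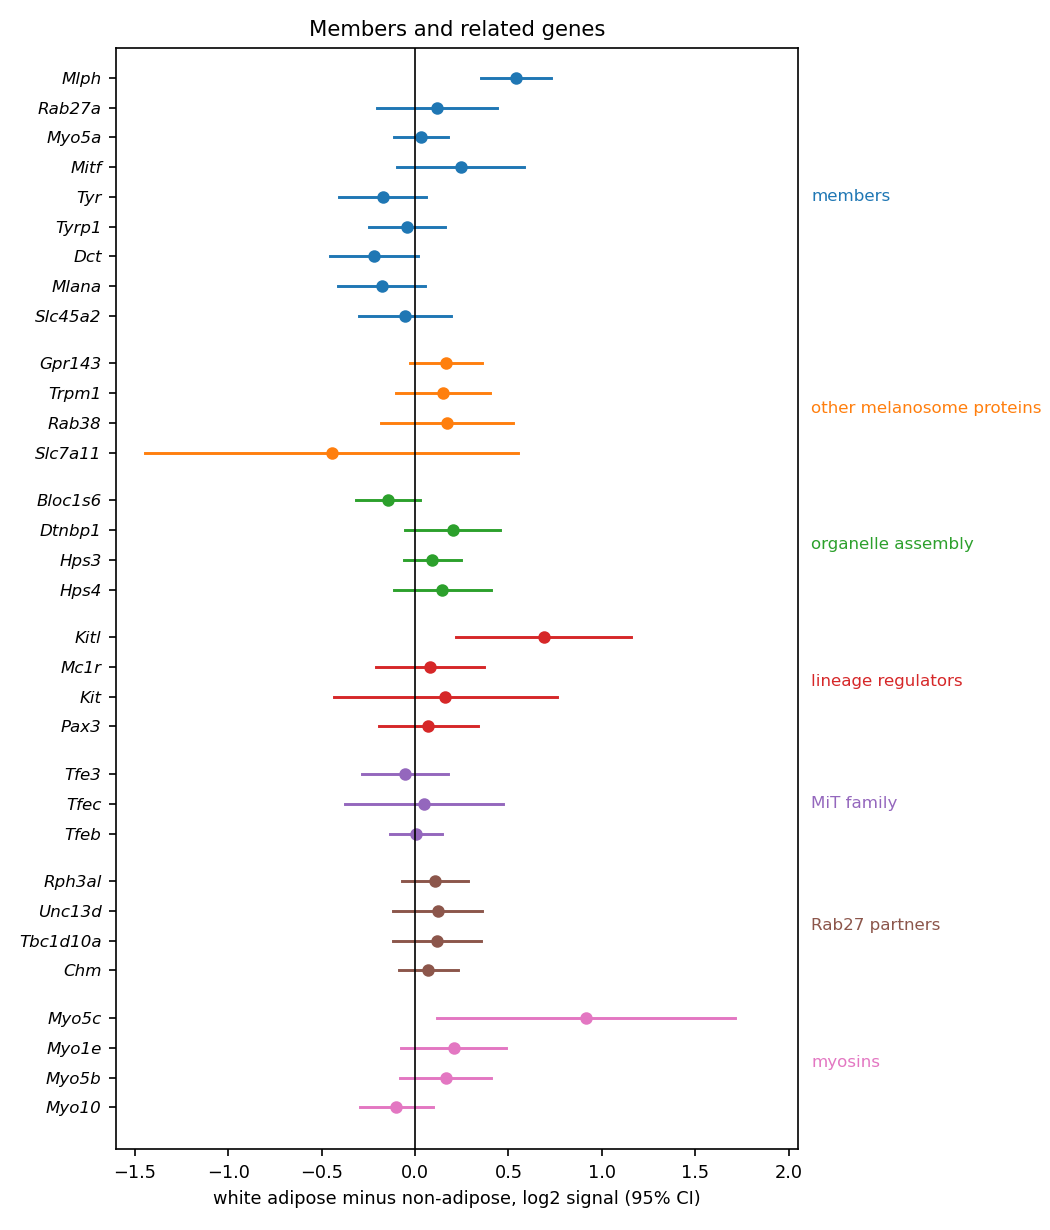
White adipose minus non-adipose difference in log2 signal for the 9 members and for up to 4 genes from each related list, as points with limma's 95% confidence interval (3 arrays per group). The intervals of Mlph, Kitl and Myo5c lie above 0 and all others include 0; the intervals are not adjusted for the number of genes.

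Among 527 genes with a mean above the median and a span of at least 1 log2 unit, H2-Eb2, an MHC class II gene, had the pattern most like Mlph, with a Pearson r of 0.897 and a Spearman rho of 0.771 over the 6 arrays. It measured 5.29, 4.80 and 5.54 in the non-adipose and 6.06, 7.11 and 6.97 in the white adipose tumours. Gm13483 followed at 0.833, the adhesion molecule gene Alcam at 0.82, Bmp5, a bone morphogenetic protein, at 0.805 and Hmgcll1, an enzyme of leucine and ketone metabolism, at 0.803, all as Pearson r. Alcam measured 7.24, 7.78 and 7.02 against 8.15, 7.96 and 8.06, so its groups did not overlap either. For the other 3 the second and the third white adipose tumour were high and the first was near the non-adipose tumours. The mean and the span were taken over all 6 arrays. H2-Eb2, Gm13483 and Bmp5 lay below the median in every non-adipose tumour and were candidates only through their white adipose values. Alcam, Hmgcll1 and Gm13483 did not span 1 log2 unit within either site and met that limit only across the sites. The likeness to Mlph is therefore partly built in by the selection for all the genes named here. These correlations describe the same 6 arrays, and the other members span less than 1 log2 unit and were not candidates.

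**Figure D4:**
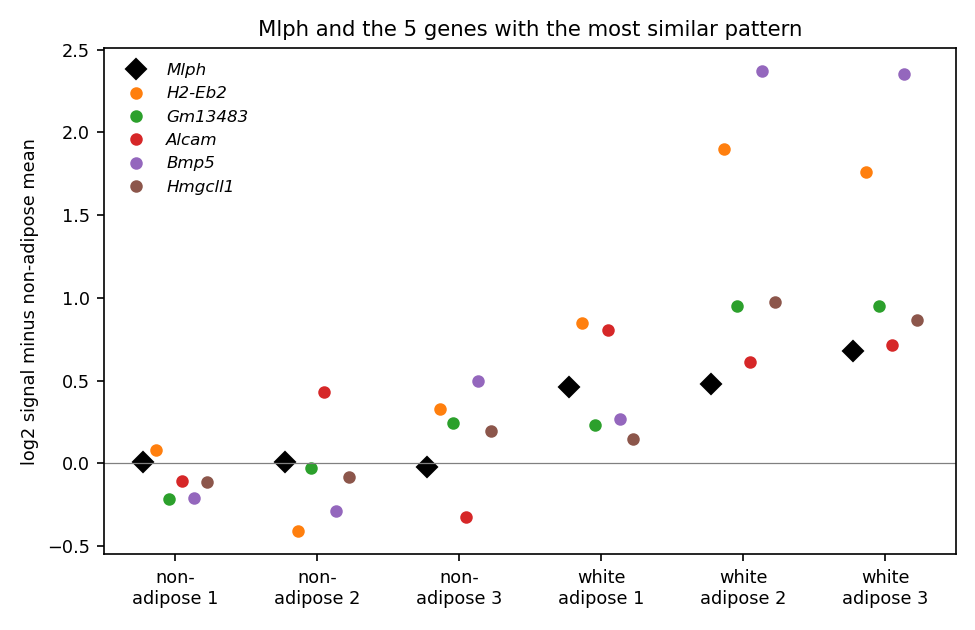
Log2 signal minus the mean of the non-adipose tumours for Mlph (diamonds) and the 5 genes with the highest Pearson r with it (circles), by array on the x axis. Mlph, H2-Eb2 and Alcam are above all their non-adipose values in every white adipose tumour, whereas Bmp5, Gm13483 and Hmgcll1 are not so in white adipose replicate 1.

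Skin is one tissue in which these genes are normally expressed, and markers of other skin cells differed strongly between single tumours. Of 12 measured keratinocyte markers, 11 were highest in white adipose replicate 1. The log2 of their summed signal was 12.90 there and 9.03 in each of the other white adipose tumours, against 9.04 to 9.93 in the non-adipose tumours. Of 12 measured hair follicle markers, 9 were highest in non-adipose replicate 3. Of the 12, 3 did not overlap between groups and were lower in white adipose tumours, where this held for 3.97% of all genes. The summed signal of the 12 was 10.78 in non-adipose replicate 3, 9.27 and 8.60 in non-adipose replicates 1 and 2, and 8.65 to 8.67 in the white adipose tumours. Tyr and Dct were highest in non-adipose replicate 3 too, whereas Tyrp1 was lowest there. Mlana was highest in non-adipose replicate 1 and Slc45a2 in white adipose replicate 3. Tyr, Dct, Mlana and Slc45a2 were lowest in white adipose replicate 1, and Tyrp1 was not. In white adipose replicate 1 and non-adipose replicate 3, Mlph was near its group's other values. With both left out, an alternative chosen after seeing the data, the difference of Mlph was 0.57, that of Rab27a 0.30, that of Dct -0.11, that of Tyr -0.051, that of Mlana -0.11, that of Tyrp1 -0.13 and that of Slc45a2 0.0065. With only 2 against 2 arrays, 4 members then did not overlap in the higher and 2 in the lower direction, where 19.3% and 20.0% of all genes did so.

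Mast cells, which also use Mitf and Kit, had 8 markers measured, of which 6 were highest in white adipose replicate 1. Their summed log2 signal was 9.87 there, 9.21 in non-adipose replicate 1 and 8.01 to 8.18 in the other 4 tumours. Mitf and Kit were highest in white adipose replicate 1 as well, at 6.64 and 6.53, and the part of mast cells in this was not tested. Glandular epithelial markers, 12 measured, had a higher mean in white adipose tumours for 11 and a lower mean for 1, with a median difference of 0.233. Of the 12, 5 were highest in white adipose replicate 1, Elf3 by a tie. Esrp1 measured 6.11 there and Cldn4 6.26. In the other white adipose tumours Esrp1 (4.71 and 4.77) and Cldn4 (5.74 and 5.77) lay below their non-adipose means of 4.80 and 5.86. Of the 12, 3 did not overlap and were higher, namely Agr2 at 0.30 (SE 0.101), Tff3 at 0.26 (SE 0.115) and Elf3 at 0.23 (SE 0.101). The only marker with a lower mean was Spdef, at -0.18 (SE 0.0914). These glandular markers were all named after their values were seen. At an unadjusted p under 0.05, 1 (Agr2) was higher. The shares of all genes were 3.34% not overlapping and higher, and 1.66% higher at that p. By mean signal Agr2 lay at percentile 12.1, Tff3 at 25.3 and Elf3 at 24.5, so these low values may be background. The summed log2 signal of the 12 glandular markers was 8.85 to 8.91 in the non-adipose and 8.90 to 9.13 in the white adipose tumours. The part of such cells in the levels of Mlph and Myo5c was not tested. The summed log2 signal of cytotoxic lymphocyte markers, cells in which Rab27a serves granule release, was highest in non-adipose replicate 3 at 9.47 and ran from 8.39 to 9.07 elsewhere. That of macrophage markers ran from 12.76 to 12.97 in the non-adipose and from 12.65 to 13.08 in the white adipose tumours, and that of Schwann cell markers, 7 of 10 measured, from 9.52 to 9.63 and from 9.34 to 9.65. Skeletal muscle markers were at 9.12 to 10.64 in the non-adipose and 9.10 to 9.29 in the white adipose tumours, and adipocyte markers, 8 of 10 measured, at 8.73 to 9.05 and 8.51 to 9.24. For the labelled tissue, 6 of 13 colorectal epithelial markers had a higher and 7 a lower mean in white adipose tumours, with a median difference of -0.00751. The keratins Krt8 and Krt18 of simple epithelia lay at percentiles 96.1 and 94.9 by mean signal. The rest of that list ran from 13.1 (Car1) to 66.9 (Cdh1), with Muc2 at 52.0, Epcam at 29.1, Cdx2 at 38.9 and Vil1 at 23.3. As probe sets differ in brightness, these percentiles do not show which of them were expressed.

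**Figure D5:**
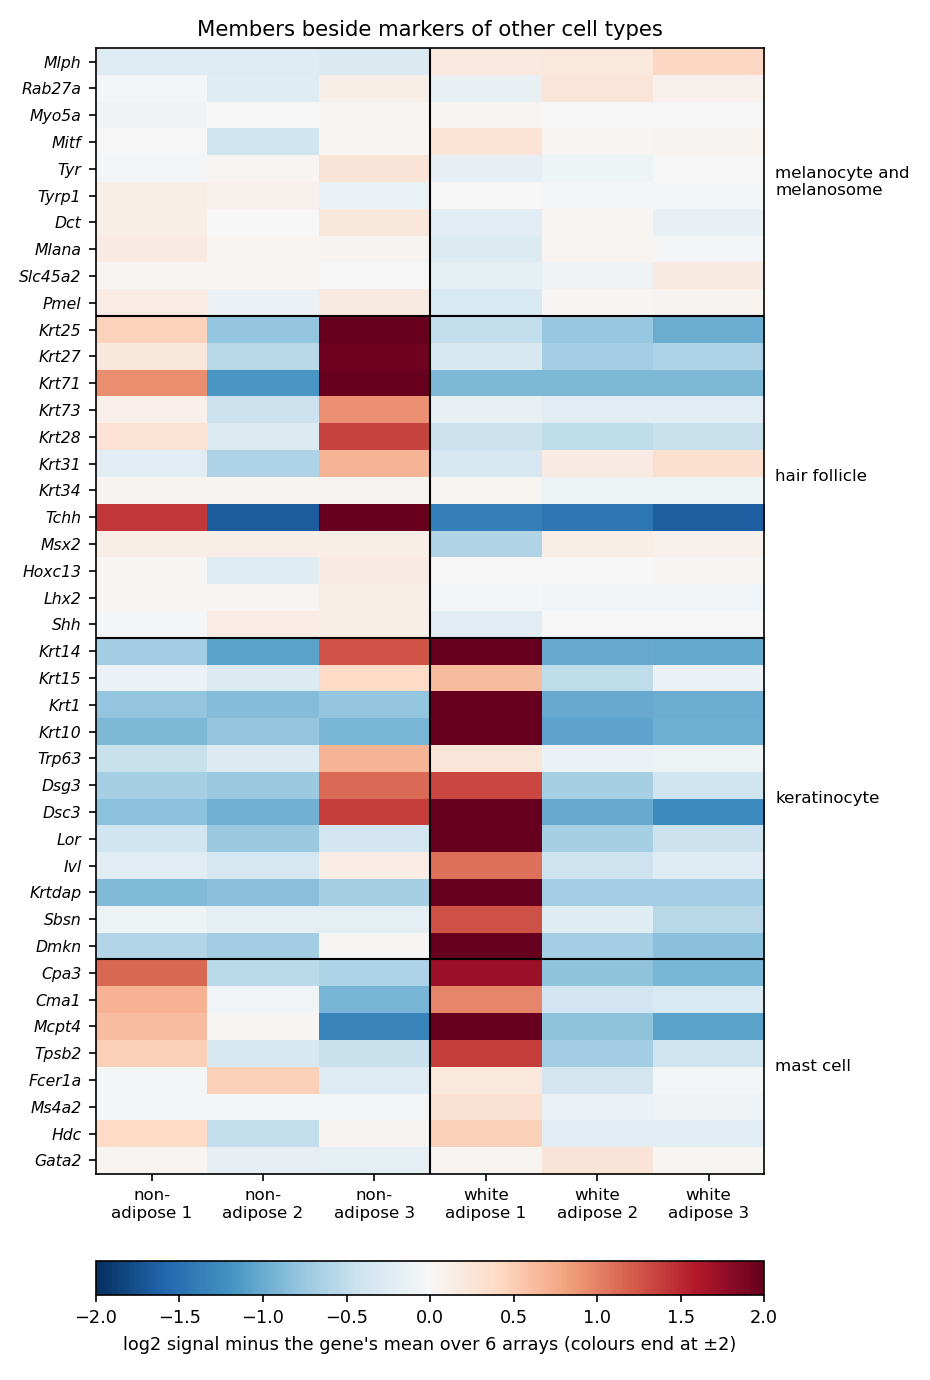
Log2 signal of each gene minus its mean over the 6 arrays, by array in columns, for the 9 members with Pmel and for markers of hair follicle, keratinocytes and mast cells; red is above and blue below the gene's mean, with colours ending at 2 either way. The hair follicle rows are reddest in non-adipose replicate 3 and the keratinocyte rows in white adipose replicate 1, whereas Mlph is red in all white adipose and blue in all non-adipose columns.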

How the data were processed

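Total RNA from 6 tumours, 3 per site, was labelled as cDNA and hybridised to Affymetrix whole-transcript arrays, per the labels' protocols. The authors deposited log2 signals for 41345 probe sets, made with Affymetrix Expression Console, per the submitters' processing notes; these do not state the version, background correction or normalization. The log2 scale was read from the values, which ran from 0.973 to 13.6 with array medians of 5.66 to 5.69. Probe sets annotated to exactly 1 gene symbol (23521) were kept, and each gene was represented by its brightest one (mean of 6 arrays), which left 22180 genes. The arrays correlated across genes at 0.983 to 0.995. No scanner files or detection calls were used, and batches were not tested.

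White adipose was compared with non-adipose by lmFit and eBayes of limma 3.58.1 (R 4.3.3), with no filter and no replicate block. Benjamini-Hochberg adjustment covered all 22180 genes, and the threshold was 0.05. The fit was also run on simulated data with independent genes and no outlying array, so that run does not bear on correlated genes or outlying tumours. The median SE of a difference was 0.0972, and the number of arrays limits this precision. Alternatives were quantile normalization, array medians subtracted, the dimmest 25 percent of genes left out, the mean of a gene's probe sets, trend and robust eBayes, array weights, a replicate block and each array left out. Related genes were named as up to 4 with the smallest p in each related list, and likeness to Mlph as the 5 highest Pearson r. The members and lists were chosen with earlier results of these data known.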

Additional observations from a re-analysis of the deposited data

How the results depend on the processing

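The number of arrays limits the precision, and without detection calls it is not known here which low values lay above background. Under 14 alternatives limma called 0 genes and 0 members at an adjusted p of 0.05. The number at an unadjusted p under 0.05, 368 higher and 473 lower, became 728 and 893 with array weights, 819 and 981 without white adipose replicate 1 and 298 and 342 without white adipose replicate 2. The median difference of the members was not stable in sign. From -0.0427 it moved as low as -0.0739 (non-adipose replicate 3 left out) and as high as 0.0173 (white adipose replicate 1 left out). It was also positive with array weights, at 0.00185, and when non-adipose replicate 1 was left out, at 0.00327. With white adipose replicate 1 and non-adipose replicate 3 both removed it was 0.00648. Of the members, 7 of 9 kept their sign in all alternatives. The exceptions were Slc45a2, at 0.0018 with array weights, 0.0065 without white adipose replicate 1 and non-adipose replicate 3 together, and -0.16 to 0.026 with single arrays left out, and Tyrp1, at -0.12 to 0.0071 with single arrays left out. Among related genes, Tfeb was at -0.0048 with array medians subtracted, -0.0046 with array weights and -0.0051 after quantile normalization, and Tfec at -0.081 with array weights and -0.14 without both named arrays. With single arrays left out Tfeb ran from -0.019 to 0.026, Tfec from -0.14 to 0.21, Tfe3 from -0.10 to 0.025, Kit from -0.039 to 0.39, Mc1r from -0.046 to 0.17 and Pax3 from -0.034 to 0.13. The cause was not tested. Tyr, Gpr143 and Trpm1 were among the dim genes left out by the filter and have no value there. Members whose groups did not overlap numbered 2 higher after quantile normalization, where 4.47% of all genes did so, and 4 higher and 2 lower without both named arrays, where 19.3% and 20.0% did so. With single arrays left out they numbered 1 to 3 in each direction, where 6.35% to 11.7% of all genes did so in the higher and 7.42% to 12.1% in the lower direction.

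Replicate numbers are shared by the groups, but same-numbered arrays deviated together only weakly (r of 0.142, 0.064 and 0.0641 over genes), and non-adipose replicate 3 correlated better with white adipose replicate 2 than with replicate 3. The r of differently numbered arrays ran from -0.182 to 0.0864, and only the highest of them was positive. As the sources used here state no pairing and these r are small, the numbers were not taken as pairs. With a replicate block, 504 genes were higher and 577 lower at an unadjusted p under 0.05, 0 were called, and the smallest adjusted p of a member was 0.885. Slc7a11 then had an SE of 0.0869 and an unadjusted limma p of 0.00554.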
